A study of Mus musculus with 23 samples.

Results

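The hippocampal expression of 7 genes was described here: Lrg1, Lcn2, Serpina3n, Cebpd, Mt1, Mt2 and Mt3, which are acute-phase genes and metallothioneins. They were picked by name out of the 19733 genes of the expression table, because several of them had higher values in mice given urolithin A (UA) in an earlier look at the same data. All 7 were found in the table, and all 7 passed the filter on low values, an average of 0.1 FPKM or more over all mice. FPKM is a fragment count scaled by the length of the transcript and by the total of the library.

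The study asked whether UA, a gut microbial metabolite of ellagitannins, changes what chronic alcohol does to the brain. RNA was sequenced from the hippocampus of 23 wild-type male C57BL/6J mice, acquired at 6 weeks of age. The Ctrl group (9 mice) received an AIN93M control liquid diet, the EtOH group (7 mice) an ethanol liquid diet, and the EtOH-UA group (7 mice) the ethanol diet with UA at 200 mg/kg by gavage each day. All mice were gavaged daily with 0.05% CMC-Na, the vehicle, for 16 weeks of treatment followed by 1 week of behavior tests, so no group was free of gavage and no group received UA without ethanol. Each library is 1 mouse, and a mouse is named below by its number in the table.

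The acute-phase response is the change in secreted proteins that follows the cytokines of injury or infection, above all IL-6 and IL-1, and it runs through STAT3, NF-kB and the C/EBP transcription factors. In the brain its best known genes are made by reactive astrocytes and by endothelial cells. Metallothioneins are small cysteine-rich proteins that bind zinc and copper. Mt1 and Mt2 are induced by zinc through the factor MTF1 and also by glucocorticoids and IL-6, while Mt3 is the brain form, which metals induce poorly.

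LRG1 is a secreted leucine-rich glycoprotein that alters TGF-beta signaling in endothelium, and its gene lies on chr17:56119678-56121946 of the GRCm38 mouse genome. LCN2 is a lipocalin that binds bacterial iron carriers, with its gene on chr2:32384637-32387739. SERPINA3N is a serine protease inhibitor and a marker of reactive astrocytes, with its gene on chr12:104406646-104414334, and CEBPD is a C/EBP transcription factor, with its gene on chr16:15887286-15889545. The metallothioneins form 1 cluster on chromosome 8, in which the 4 genes from Mt4 to Mt1 span 43124 bases. Mt1 lies on chr8:94178883-94180327, Mt2 on chr8:94172618-94173567 and Mt3 on chr8:94152607-94154148. Mt1 starts 5316 bases after the end of Mt2, and Mt2 starts 18470 bases after the end of Mt3.

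The promoters of Lrg1, Lcn2 and Mt2 are shown because the pairs Lrg1 and Lcn2, and Mt1 and Mt2, were closely correlated from mouse to mouse (values below). The sequences are those of RefSeq on GRCm38.p6, which held a window for 6 of the 7 genes and none for Cebpd, and each runs 5′ to 3′ on the gene's own strand. Only bases ahead of every annotated start are printed: chr17:56122002-56122196 (minus strand) for Lrg1, chr2:32387798-32387989 (minus strand) for Lcn2 and chr8:94172368-94172617 (plus strand) for Mt2. Capitals mark the C/EBP letters TTGCNNAA and the STAT letters TTCNNNGAA in Lrg1 and Lcn2, and the metal response element cores TGCACNC and TGCGCNC in Mt2, each searched on both strands.
Lrg1: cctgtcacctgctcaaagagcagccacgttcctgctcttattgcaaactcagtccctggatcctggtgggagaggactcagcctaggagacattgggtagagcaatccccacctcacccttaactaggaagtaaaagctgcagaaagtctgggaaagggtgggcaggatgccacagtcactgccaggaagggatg
Lcn2: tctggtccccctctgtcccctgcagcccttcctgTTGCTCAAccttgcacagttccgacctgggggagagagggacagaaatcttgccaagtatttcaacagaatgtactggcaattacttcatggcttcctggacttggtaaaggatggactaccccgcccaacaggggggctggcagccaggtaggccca
Mt2: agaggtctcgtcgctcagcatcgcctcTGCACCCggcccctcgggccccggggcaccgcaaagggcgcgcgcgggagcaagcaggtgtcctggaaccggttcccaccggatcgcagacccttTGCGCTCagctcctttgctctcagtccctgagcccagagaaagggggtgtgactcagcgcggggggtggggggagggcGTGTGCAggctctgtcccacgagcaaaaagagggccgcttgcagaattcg

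The matches were counted in 250 bases ahead of 1 RefSeq start per gene. Mt2 held 3 metal response element cores, a number reached by 1.26% of 32851 promoter windows of the same length. Mt1 held 1, where 21.4% of the windows held 1 or more. The Mt1 and Serpina3n windows run past the first base of the gene given above, so part of each lies inside the gene. The Mt1 matches lie in that part, and the Mt1 window is not printed because a RefSeq transcript of Mt1 starts inside it. Lcn2 held 1 C/EBP match, where 9.56% of the windows held 1 or more, and Lrg1 held neither a C/EBP nor a STAT match, so the pair shared no match to these letters, and no STAT match (present in 7.02% of windows) lay in any of the 6. Mt3 held no metal response element core. The glucocorticoid receptor letters ACANNNTGT (5.84% of windows) lay in Lcn2, Serpina3n and Mt1. These matches describe letters in a window and show no binding.

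The libraries differed in 2 ways that touch the values below. First, the length slope, which is the slope of a library's expression on transcript length relative to the average library, was lowest in EtOH-UA mice 137 (-0.15) and 141 (-0.094) and otherwise lay at or above -0.069. The summed FPKM, at 327896 to 404609 over all mice, was highest in the same mouse 137. Second, the choroid plexus gene Ttr split the libraries into 9 with low Ttr, at 3.88 to 70.2 FPKM (5 Ctrl, 1 EtOH and 3 EtOH-UA mice), and 14 with high Ttr, at 470 to 7705 FPKM (4, 6 and 4 mice). Neurons of the hippocampus were well represented in every group, with the 12 pyramidal and granule neuron markers summing to 275 to 415 FPKM per mouse.

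**Figure D1:**
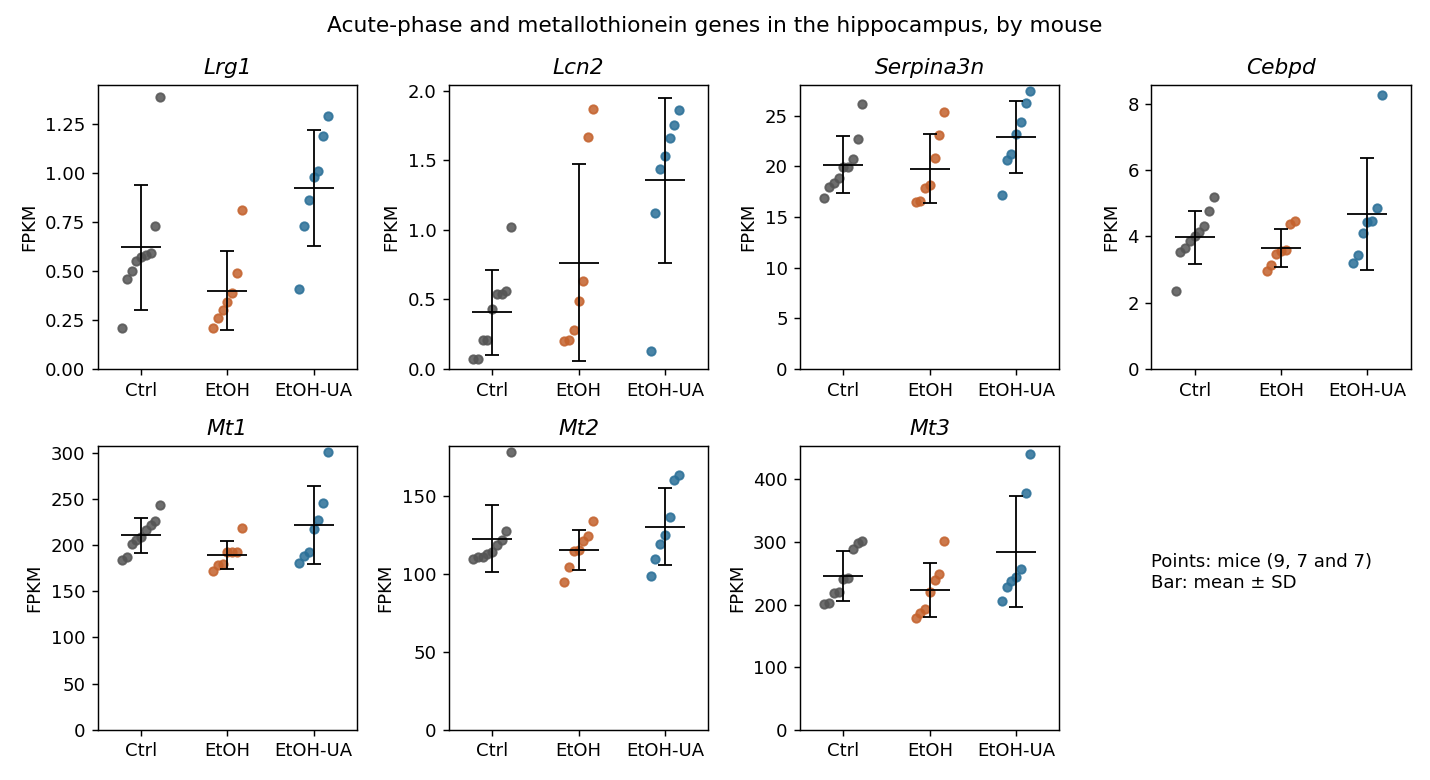
Level of each of the 7 genes in FPKM (vertical axes, starting at 0) in the 3 groups of mice. Points are mice, and bars are the mean ± SD of 9, 7 and 7 mice. Lrg1 and Lcn2 sit below 2 FPKM with most EtOH-UA mice near the top, while the groups overlap for every gene.

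Lrg1 was weakly expressed. In Ctrl mice its level ran from 0.21 FPKM (mouse 198) through a median of 0.57 to 1.39 (mouse 201), in EtOH mice from 0.21 (mouse 191) through 0.34 to 0.81 (mouse 195), and in EtOH-UA mice from 0.41 (mouse 141) through 0.98 to 1.29 (mouse 142). The means were 0.620 ± 0.321 (SD, n = 9), 0.400 ± 0.202 (SD, n = 7) and 0.924 ± 0.295 FPKM (SD, n = 7). All 7 EtOH-UA mice lay above the EtOH median and 5 lay above every EtOH mouse. The groups still overlapped, with EtOH-UA mice 141 (0.41 FPKM) and 178 (0.73) below EtOH mouse 195 (0.81). From the smallest steps between FPKM values, 1 fragment was worth about 0.0416 FPKM for Lrg1, so the group means correspond to about 14.9, 9.61 and 22.2 fragments per mouse. Counting alone would then give an SD of 0.161, 0.129 and 0.196 FPKM, which is smaller than the spread seen between mice in each group.

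Lcn2 showed a wider spread than any other gene of the 7 relative to its mean. It ranged from 0.07 (mice 198 and 200) through 0.43 to 1.02 FPKM (mouse 201) in Ctrl mice, from 0.20 (mouse 191) through 0.49 to 1.87 (mouse 189) in EtOH mice, and from 0.13 (mouse 141) through 1.53 to 1.86 (mouse 137) in EtOH-UA mice. Among EtOH mice, 189 and 195 stood at 1.87 and 1.67 FPKM while the other 5 were at 0.63 or below. Among EtOH-UA mice, all but mouse 141 were at 1.12 or above, which put 6 of 7 above every Ctrl mouse. The means were 0.406 ± 0.304, 0.764 ± 0.707 and 1.36 ± 0.591 FPKM (SD, n = 9, 7 and 7). For Lcn2 1 fragment was worth about 0.0676 FPKM, so the lowest values rest on 1 or 2 fragments and the group means on about 6.0, 11.3 and 20.1.

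Serpina3n was expressed at a moderate level, with a Ctrl mean of 20.2 ± 2.80 FPKM (SD, n = 9), an EtOH mean of 19.8 ± 3.43 (SD, n = 7) and an EtOH-UA mean of 22.9 ± 3.55 (SD, n = 7). It ranged from 16.9 to 26.1 FPKM in Ctrl mice, from 16.5 to 25.4 with ethanol and from 17.1 to 27.5 with ethanol and UA. The ranges nearly coincided, and 2 of the 7 EtOH-UA mice exceeded all EtOH mice.

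Cebpd had means of 3.98 ± 0.802, 3.65 ± 0.582 and 4.69 ± 1.69 FPKM (SD, n = 9, 7 and 7). Ctrl mice ranged from 2.36 to 5.18, EtOH mice from 2.96 to 4.48 and EtOH-UA mice from 3.19 to 8.28 FPKM. The highest value, in EtOH-UA mouse 137, was far from the next EtOH-UA mouse at 4.87, and the EtOH-UA median of 4.45 FPKM lay within the range of the other groups.

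The metallothioneins were by far the most abundant of the 7 genes. Mt1 averaged 211 ± 18.9, 189 ± 15.5 and 222 ± 41.9 FPKM in the Ctrl, EtOH and EtOH-UA mice (SD, n = 9, 7 and 7), with ranges of 184 to 243, 171 to 219 and 181 to 301. Mt2 averaged 122 ± 21.6, 115 ± 12.9 and 130 ± 24.5 FPKM, with ranges of 109 to 178, 94.6 to 134 and 98.2 to 163. Mt3 averaged 246 ± 40.3, 224 ± 43.3 and 284 ± 88.7 FPKM, with ranges of 202 to 301, 178 to 301 and 206 to 441. Per unit length the order of the means was Mt3, Mt1, Mt2 in each group, and the ranges of Mt3 and Mt1 overlapped in each group. EtOH-UA mouse 137 had the highest value of all 23 mice for Mt1 and Mt3, and mouse 141 the second highest for Mt3. The remaining gene of the cluster, Mt4, was above 0 in 2 of 23 mice and was not tested.

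The first comparison, EtOH against Ctrl, asked whether the ethanol diet itself moved these genes. It is the contrast that did not choose them, although it shares its EtOH mice with the contrast that did. Low values in these EtOH mice favor both the choice of a gene and a lower value here. The signs and tests below are therefore not independent of the choice. None of the 7 genes passed limma at an adjusted p under 0.05 (Benjamini-Hochberg over 15986 genes, adjusted p = 0.999 for each), where the share of all genes called was 0%. At an unadjusted limma p under 0.05 the count was 0 of 7 members against 487 of all genes (3.05%). In all, 6 of 7 genes had lower means on the log scale with ethanol, while 51.4% of all genes were lower. Lower is the direction that the choice of the genes favors. The median log2 fold change of the 7 genes was -0.11 against -0.0030 over all genes.

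Among the secreted acute-phase genes, Lrg1 was lower in EtOH mice by a log2 fold change of -0.50 (SE 0.26, exact permutation p = 0.0916, two-sided), with 6 of 7 EtOH mice below the Ctrl median. Lcn2 differed the other way, by 0.63 (SE 0.49, exact permutation p = 0.236), with 4 of 7 EtOH mice above the Ctrl median. Serpina3n differed by -0.034 (SE 0.10, exact permutation p = 0.754). These 3 differences were within the spread between mice, and that of Lcn2 was 0.37 without EtOH mouse 189.

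Of the factor and its metal-binding companions, Cebpd differed by -0.11 (SE 0.16, exact permutation p = 0.464), Mt2 by -0.080 (SE 0.11, p = 0.491 by the same permutation test) and Mt3 by -0.14 (SE 0.14, permutation p = 0.271). Without Ctrl mouse 144 the Mt2 difference was -0.011, and 5 of 7 EtOH mice lay above the Ctrl median of Mt2, against the sign of its difference. Mt1 had the smallest exact permutation p of the 7, whereas Lrg1 had the smallest p by limma, and neither was under 0.05 by limma before adjustment. It was lower in EtOH mice by -0.15 (SE 0.086), with 6 of 7 EtOH mice below the Ctrl median, at an exact permutation p of 0.0301 for the gene on its own, unadjusted for the 7 tests. Over all genes Mt1 did not pass (limma, adjusted p = 0.999).

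**Figure D2:**
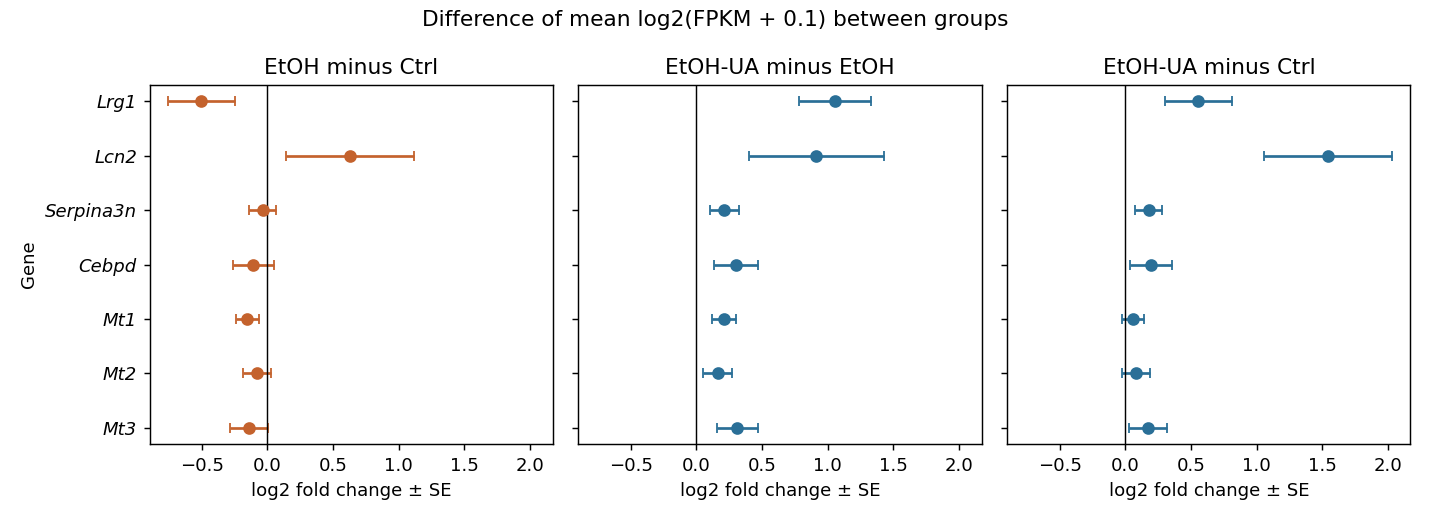
Log2 fold change of each gene (horizontal axes, difference of mean log2(FPKM + 0.1), with bars of 1 SE from limma) for EtOH minus Ctrl, EtOH-UA minus EtOH and EtOH-UA minus Ctrl. Only Lcn2 lies above 0 in the first panel, and all 7 genes lie above 0 in the other panels, the choice of the genes having used the EtOH-UA mice.

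The second comparison, EtOH-UA against EtOH, is the one that chose the genes, so its values are a description and carry no test. All 7 genes had higher means in EtOH-UA mice, where 51.2% of all 15986 genes were higher. Lrg1 differed most, by a log2 fold change of 1.06 (SE 0.27), a ratio of means of 2.31. Lcn2 differed by 0.91 (SE 0.52, ratio 1.77), with 6 of 7 EtOH-UA mice above the EtOH median but none above the highest EtOH mouse. The remaining 5 genes differed by less: Mt3 by 0.31 (SE 0.15), Cebpd by 0.30 (SE 0.17), Mt1 by 0.21 (SE 0.091), Serpina3n by 0.21 (SE 0.11) and Mt2 by 0.16 (SE 0.11). The median over the 7 genes was 0.30, against 0.0033 over all genes, and 0 of all 15986 genes (0%) passed limma at an adjusted p under 0.05, with 523 (3.27%) at an unadjusted p under 0.05.

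Part of these differences rested on EtOH-UA mouse 137. Without it, the log2 fold change against EtOH fell to 0.16 for Cebpd, 0.20 for Mt3, 0.14 for Mt1 and 0.10 for Mt2, and the median over the 7 genes fell to 0.19. Lrg1 and Lcn2 did not rest on it: leaving out each mouse in turn gave 0.96 to 1.22 for Lrg1 and 0.73 to 1.32 for Lcn2, with the highest Lcn2 value obtained without EtOH-UA mouse 141. With a larger pseudocount of 1, which damps weakly expressed genes, Lrg1 differed by 0.46 and Lcn2 by 0.45.

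EtOH-UA against Ctrl compares the same 7 EtOH-UA mice with the Ctrl mice, and is described in the same way. All 7 genes were again higher on average (51.2% of all genes were), with a median of 0.18 against 0.0024 over all genes. Lcn2 stood out by size, at a log2 fold change of 1.55 (SE 0.49) and a ratio of means of 3.34, followed by Lrg1 at 0.56 (SE 0.26, ratio 1.49). Cebpd differed by 0.20 (SE 0.16), Serpina3n by 0.18 (SE 0.10) and Mt3 by 0.17 (SE 0.14), and Mt2 and Mt1 by 0.082 (SE 0.11) and 0.060 (SE 0.086). Without EtOH-UA mouse 137 the median of the 7 genes fell to 0.058, with Cebpd at 0.052, Mt3 at 0.058, Mt2 at 0.024 and Mt1 at -0.017. Across the 3 groups the order therefore differed between the secreted pair: mean Lrg1 was lowest in EtOH mice and mean Lcn2 was lowest in Ctrl mice.

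The choroid plexus content of the libraries varied widely within each group. All 10 choroid plexus markers had higher mean log2 values in EtOH than in Ctrl mice, with a median log2 fold change of 1.72. On that scale all 10 were lower in EtOH-UA than in EtOH mice, with a median of -0.47, and none passed the adjusted test in either comparison. The summed FPKM of the markers went the other way between EtOH and EtOH-UA mice. Its medians were 62.0, 1291 and 1877 in the Ctrl, EtOH and EtOH-UA mice, with ranges of 8.96 to 2996, 72.5 to 5806 and 17.1 to 7862. With the choroid plexus level as a covariate, Lcn2 differed between EtOH and Ctrl by 0.21 in place of 0.63, and Lrg1 by -0.68 in place of -0.50. Between EtOH-UA and EtOH the same covariate gave 1.09 for Lcn2 and 1.13 for Lrg1. The levels are also given within the Ttr sets, a split chosen after the data were seen, as a description. In the 14 libraries with high Ttr, the Lrg1 medians were 0.650, 0.345 and 0.995 FPKM in the 4 Ctrl, 6 EtOH and 4 EtOH-UA mice, and the Lcn2 medians were 0.495, 0.560 and 1.71 FPKM. In the 9 libraries with low Ttr, which include EtOH-UA mouse 141 and only 1 EtOH mouse, Lrg1 ran from 0.21 to 0.59 FPKM in 5 Ctrl mice and from 0.41 to 1.29 in 3 EtOH-UA mice. Lcn2 ran there from 0.07 to 0.54 and from 0.13 to 1.53 FPKM, so the groups overlapped for both genes.

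The next question was whether the 7 genes varied together from mouse to mouse. Group means were subtracted first, so that the differences that chose the genes did not enter, and the deviations of 23 mice were correlated (permutation test within groups, Benjamini-Hochberg over 21 pairs). At an adjusted p under 0.05 for r, 5 of 21 pairs passed, and they did not join all 7 genes. Mt1 and Mt2 were the most closely related pair (Pearson r = 0.80 and Spearman rho = 0.74, adjusted permutation p = 0.00021 and 0.00714). Lrg1 and Lcn2 formed a pair of their own (r = 0.75 and rho = 0.66, adjusted permutation p = 0.00231 and 0.0091). The relation of Lrg1 and Lcn2 kept r at 0.69 without the 2 mice farthest from the median of Lrg1, and within the Ctrl, EtOH and EtOH-UA mice r was 0.76, 0.73 and 0.78. In EtOH-UA mice, where mouse 141 stood apart, rho was only 0.071.

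Lrg1 and Lcn2 showed little relation to the other 5 genes, with r between -0.18 and 0.18 for the 10 pairs that cross the sets. Of the other pairs that passed, Cebpd was joined to Mt1 (r = 0.75 and rho = 0.68, adjusted permutation p = 0.00294 and 0.0091) and to Mt3 (r = 0.68 and rho = 0.58, adjusted permutation p = 0.00389 and 0.0277). Mt1 and Mt3 was marginal (r = 0.60 and rho = 0.45, adjusted permutation p = 0.0497 and 0.190) and missed the threshold in 18 of 23 analyses that each left out 1 mouse, with r from 0.39 without EtOH-UA mouse 137 to 0.70. Without the 2 mice farthest from the median of the first gene named, r was 0.78 for Mt1 and Mt2, 0.56 for Cebpd and Mt1, 0.60 for Cebpd and Mt3 and 0.41 for Mt1 and Mt3. No pair with Serpina3n passed by r, and its highest was r = 0.51 with Cebpd (rho = 0.61, adjusted permutation p = 0.063 and 0.0197).

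**Figure D3:**
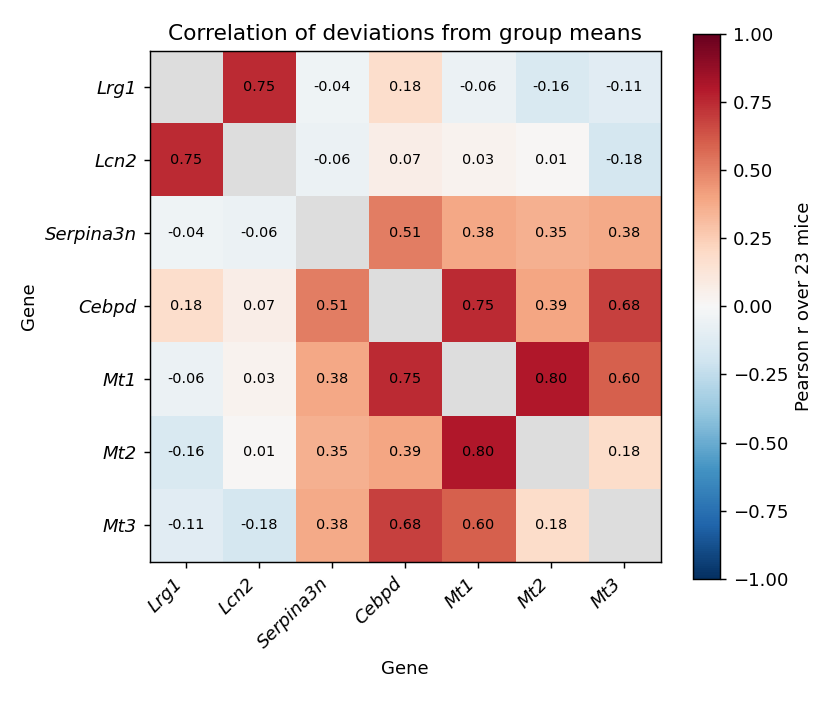
Pearson r between the deviations from group means of log2(FPKM + 0.1) for each pair of the 7 genes over 23 mice (both axes list the genes, color gives r from -1 to 1, gray is the diagonal). Lrg1 and Lcn2 share an r of 0.75 and lie between -0.18 and 0.18 with the other genes.

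The length slope of the libraries moved with some of these genes and not with others. Mt3 followed it closely (r = -0.96, rho = -0.90, adjusted permutation p = 7e-05 over the 7 genes, from the smallest p that 100000 permutations can give). Its r was still -0.93 without the 2 mice whose slopes lay farthest from the median once group means were subtracted. Cebpd (r = -0.65, adjusted permutation p = 0.00938) and Mt1 (r = -0.64, adjusted permutation p = 0.0165) followed it less closely, falling to r = -0.39 and r = -0.33 without those 2 mice, EtOH mouse 189 and EtOH-UA mouse 137. The others, Lrg1 (r = 0.081), Lcn2 (r = 0.10), Serpina3n (r = -0.43) and Mt2 (r = -0.25), did not pass. Median annotated transcript lengths were 477 bases for Mt3, 2088 for Cebpd and 633 for Mt1. They were 1408 for Lrg1, 867.5 for Lcn2, 2064 for Serpina3n and 449.5 for Mt2, so these relations did not follow the order of the lengths.

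After the length slope was regressed out, Mt1 and Mt2 (r = 0.86) and Lrg1 and Lcn2 (r = 0.74) still passed, whereas Cebpd and Mt1 (r = 0.57, adjusted permutation p = 0.113), Cebpd and Mt3 (r = 0.29) and Mt1 and Mt3 (r = -0.071) did not. With the slope as a covariate the Mt3 difference between EtOH-UA and EtOH mice was 0.13 in place of 0.31, while that of Lrg1 was 1.09 and that of Lcn2 0.98. Under the same covariate Cebpd differed by 0.17 in place of 0.30, Mt1 by 0.14 in place of 0.21, Serpina3n by 0.15 in place of 0.21 and Mt2 by 0.13 in place of 0.16, so that the median of the 7 genes was 0.15 in place of 0.30. In EtOH against Ctrl it left Mt3 at -0.047 in place of -0.14, Cebpd at -0.037 in place of -0.11 and Serpina3n at -0.0041 in place of -0.034.

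**Figure D4:**
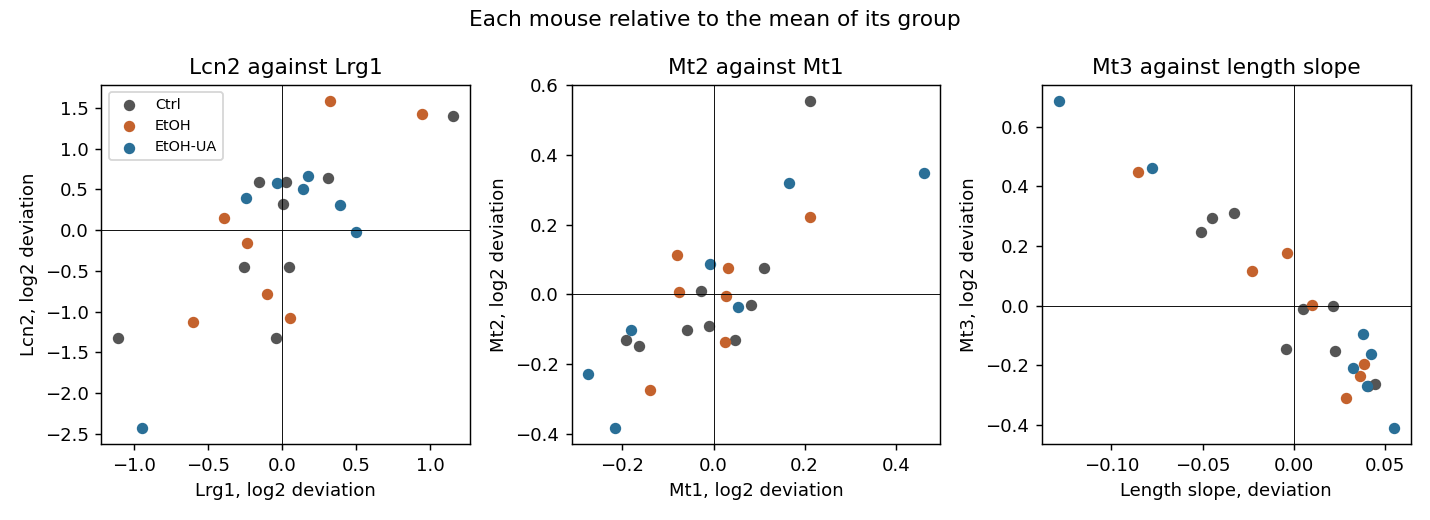
Deviations of each of 23 mice from its group mean, for Lcn2 against Lrg1 and Mt2 against Mt1 (log2 scale on both axes) and for Mt3 (log2 scale) against the length slope of the library, a slope without a unit. Colors give the groups. The points rise from lower left to upper right in the first and second panels (r of 0.75 and 0.80) and fall steeply in the third (r of -0.96).

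The levels of other cell types and of shared inducers in the same libraries were set beside the 7 genes as summed FPKM of marker lists, again as deviations from group means, with 56 relations in all. At an adjusted permutation p under 0.05 for r, 10 of 56 passed, and the count ran from 1, without EtOH mouse 189, to 10 when single mice were left out. The closest were Mt1 with 12 endothelial markers (r = 0.81, rho = 0.70, adjusted permutation p = 0.00112 and 0.0129), Serpina3n with 17 reactive astrocyte genes such as Gfap and Vim (r = 0.69, rho = 0.74, adjusted permutation p = 0.0143 and 0.00728) and Mt2 with the endothelial markers (r = 0.66, rho = 0.56, adjusted permutation p = 0.0202 and 0.0594). Without the 2 mice of most extreme list level, r was 0.80, 0.72 and 0.64. These 3 also passed after the length slope was regressed out (r = 0.70, r = 0.62 and r = 0.66), as did Cebpd with the glucocorticoid targets (r = 0.65), which had not passed before (r = 0.48). By rho, without removal of the slope, only Mt1 with the endothelial markers and Serpina3n with the reactive astrocyte genes passed. The next adjusted permutation p was 0.0594. Gfap, at 111 FPKM on average, made up most of the reactive astrocyte sum, whose group medians were 153, 159 and 181 FPKM. Serpina3n did not pass with the 9 general astrocyte markers (r = -0.22, rho = -0.22, adjusted permutation p = 0.546 and 0.523). Lrg1 and Lcn2 passed with none of the lists. In bulk tissue, more cells of a type and more RNA per cell cannot be told apart.

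Neutrophils, which store LCN2 and LRG1 in their granules, had their markers at low levels. The 11 neutrophil markers summed to 2.09 to 8.95 FPKM per mouse, of which Cxcr2 alone gave 2.0 FPKM on average, and 4 of the 11 passed the filter on low values. Elane and Ly6g were at 0 in 20 and 19 of 23 mice, the most of the 11 markers. Others were found in more mice, with S100a9 and Cxcr2 above 0 in all 23 and S100a8 in 22. Mpo was above 0 in 20 mice, Ngp in 17, Ltf in 15, Retnlg in 13, and Camp and Mmp8 in 10 each. The correlation of the neutrophil sum with Lrg1 was r = 0.49 (adjusted permutation p = 0.118) and with Lcn2 r = 0.45 (adjusted permutation p = 0.150). Only Mt2 passed with this sum, and its relation was negative (r = -0.57 and rho = -0.56, adjusted permutation p = 0.0499 and 0.0594). With the length slope regressed out it did not pass (r = -0.53, adjusted permutation p = 0.114). The 4 tested markers, Cxcr2, S100a8, S100a9 and Ngp, had a median log2 fold change of -0.40 in EtOH-UA against EtOH, and none passed. The part of neutrophils in the Lrg1 and Lcn2 differences between groups was not tested. Of the 5 hemoglobin and erythroid genes, all had positive differences in each comparison, with a median of 0.35 in EtOH against Ctrl, where 6 of the 7 genes were lower, 0.39 in EtOH-UA against EtOH and 0.66 in EtOH-UA against Ctrl. None passed the adjusted test, and 4 of the 5 reached an unadjusted p under 0.05 in the last of these. Within groups, the erythroid sum was related to Mt3 (r = 0.53 and rho = 0.39, adjusted permutation p = 0.0499 and 0.234), at r = 0.25 with the length slope regressed out, and it did not pass with the other 6 genes, among which Lrg1 (r = -0.31) and Lcn2 (r = -0.29) had negative values.

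The genes whose mouse-to-mouse pattern was closest to each of the 7, among 12899 genes that averaged 1 FPKM or more, are given as a description over 23 mice. Picking the largest of so many correlations yields high r by chance alone, and no test was run on them. The length slope was not regressed out here. Lrg1 was closest to Vwf (r = 0.82), the endothelial von Willebrand factor, and Tgm2 (r = 0.73), a transglutaminase. Vwf averaged 2.19, 2.16 and 2.92 FPKM in the Ctrl, EtOH and EtOH-UA mice, and differed between EtOH-UA and EtOH by 0.42 (SE 0.17, adjusted p = 0.90 by limma). Tgm2 averaged 2.99, 3.17 and 4.0 FPKM and differed by 0.33 (SE 0.12, adjusted p = 0.90 by limma). Both had their highest means in the EtOH-UA group, and neither passed over all genes. The next gene, Gsta3 (r = 0.64), a glutathione transferase, had its lowest mean there, at 1.24, 1.33 and 1.06 FPKM, and differed between EtOH-UA and EtOH by -0.29 (SE 0.15, adjusted p = 0.90 by limma). Lcn2 was closest to Tgfbi (r = 0.70), a secreted matrix protein, Dgcr8 (r = 0.66) and Pced1b (r = 0.66).

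Cebpd was closest to Thrsp (r = 0.90), Cebpb (r = 0.89), the related C/EBP factor, and Jun (r = 0.88), an AP-1 subunit. Serpina3n was closest to Hpca (r = 0.96), which encodes the neuronal calcium sensor hippocalcin, Nell2 (r = 0.91) and Lrrn2 (r = 0.87), none of which is an astrocyte marker of the lists used here. Mt1 was closest to Sat1 (r = 0.86), which acetylates polyamines, to Cldn10 (r = 0.84), a claudin, and to Prxl2a (r = 0.83). Mt2 was closest to Tmem38b (r = 0.76), Capn3 (r = 0.76) and Cldn22 (r = 0.75). Mt3, which itself followed the length slope at r = -0.96, was closest to the ribosomal protein genes Rps28 (r = 0.99), Rpl34 (r = 0.98) and Rpl30 (r = 0.98).

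The pathways around the 7 genes were then read from gene lists, none of which holds any of the 7. No gene of these lists passed limma at an adjusted p under 0.05 in any of the 3 comparisons, where 0% of all genes did, so counts at an unadjusted p under 0.05 are given, against 3.05% of all genes in EtOH against Ctrl, 3.27% in EtOH-UA against EtOH and 3.08% in EtOH-UA against Ctrl. The adjusted p (limma) was 0.90 or more for every gene named. Upstream, of the 24 tested genes of IL-6 family, JAK-STAT3, IL-1 and TNF signaling, 1 was on the higher and 0 on the lower side in EtOH-UA against EtOH, with a median of -0.019. That gene was Nfkb2, an NF-kB subunit (log2 fold change 0.25, SE 0.11). Jak1, at 46.0 FPKM on average, differed by -0.0038 (SE 0.036). In EtOH against Ctrl the list had 0 genes in either direction.

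Of the 5 tested C/EBP family genes other than Cebpd, Cebpb (0.33, SE 0.14) and Cebpa (0.22, SE 0.10) were on the higher side in EtOH-UA against EtOH at an unadjusted p under 0.05. Cebpg, Ddit3 and Cebpz differed by 0.079 (SE 0.054), 0.14 (SE 0.094) and -0.063 (SE 0.043). In EtOH against Ctrl none of the 5 reached an unadjusted p under 0.05, and 4 were lower.

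Among 9 tested secreted acute-phase and lipocalin genes, 7 had positive and 2 negative differences in EtOH-UA against EtOH, with a median of 0.21. Only haptoglobin, Hp, reached an unadjusted p under 0.05 (0.59, SE 0.28), at 0.0957 FPKM in EtOH and 0.184 in EtOH-UA mice. Against Ctrl, 3 of the 9 reached an unadjusted p under 0.05 in EtOH-UA mice, all on the higher side. They were Cp, the copper carrier ceruloplasmin (0.32, SE 0.12), C3, the central complement component (0.83, SE 0.30), and A2m, the protease inhibitor alpha-2-macroglobulin (0.81, SE 0.33). C3 and A2m were weakly expressed, at means of 0.207, 0.360 and 0.464 FPKM and of 0.946, 1.36 and 1.62 FPKM in the Ctrl, EtOH and EtOH-UA mice. Mice overlapped, with C3 at 0.06 to 0.36 FPKM in Ctrl and 0.13 to 0.85 in EtOH-UA mice. In EtOH against Ctrl the count was 0, with C3 at 0.59 (SE 0.30) and A2m at 0.58 (SE 0.33).

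Of 3 tested Serpina3 genes besides Serpina3n, Serpina3c reached an unadjusted p under 0.05 in EtOH-UA against EtOH (-0.62, SE 0.21), at 0.130 against 0.253 FPKM, opposite in sign to Serpina3n. Serpina3g differed by 0.033 (SE 0.20) and Serpina3i by -0.16 (SE 0.36). These genes are near copies of each other, so the split of fragments among them is uncertain. The 16 tested reactive astrocyte genes had a median of 0.11 in EtOH-UA against EtOH, with 13 positive and 1, Emp1, at an unadjusted p under 0.05 (0.36, SE 0.16). In EtOH against Ctrl the only one was Cd44 (0.53, SE 0.19), a cell surface receptor for hyaluronan. In EtOH-UA against Ctrl, 3 of the 16 reached an unadjusted p under 0.05, all on the higher side, and the median was 0.18. They were Gfap (0.23, SE 0.081), C3 and Cp, and C3 and Cp are the same genes already counted among the secreted acute-phase genes. Gfap averaged 103, 112 and 121 FPKM in the 3 groups.

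Of 23 tested zinc and copper transporters, chaperones and regulators, 0 reached an unadjusted p under 0.05 in EtOH-UA against EtOH, with a median of 0.050, and 1 did in EtOH against Ctrl, the zinc importer Slc39a4 (0.95, SE 0.44), at 0.620 FPKM in EtOH against 0.374 in Ctrl mice, with Ctrl mice ranging from 0.05 to 1.25. Hmox1, heme oxygenase, averaged 2.46, 2.45 and 2.83 FPKM, and Slc30a3, which loads zinc into synaptic vesicles, averaged 34.2, 32.6 and 36.5 FPKM. The 17 glucocorticoid targets, which share an inducer with Mt1, Mt2 and Cebpd, had a median of 0.11 in EtOH-UA against EtOH with 13 higher and 0 at unadjusted p, and a median of 0.0098 in EtOH against Ctrl. The 2 most abundant of them, Klf9 and Sgk1, differed by 0.050 (SE 0.085) and 0.027 (SE 0.17) in EtOH-UA against EtOH.

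On the receiving side, the 10 genes of the TGF-beta pathway that LRG1 acts on had 0 at an unadjusted p under 0.05 in EtOH-UA against EtOH, with a median of 0.034, and 0 in EtOH against Ctrl. Eng, the endothelial co-receptor that LRG1 binds, averaged 4.41, 3.95 and 4.22 FPKM. Of 9 tested LCN2 receptor and iron-handling genes, 1 reached an unadjusted p under 0.05 in EtOH-UA against EtOH, the endocytic receptor gene Lrp2 (-0.38, SE 0.16), at 0.0814 against 0.136 FPKM. The other LCN2 receptor, Slc22a17, was abundant at 209, 205 and 216 FPKM and differed by 0.067 (SE 0.077).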

How the data were processed

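The authors deposited 1 table of FPKM per gene and mouse, made from BGI paired-end reads aligned to mm10 and quantified with RSEM. The submitters' processing notes list HISAT2 2.1.0, Bowtie2 2.2.5, RSEM 1.2.8, StringTie and DESeq, and RNA is called total in the labels and poly(A) in the methods. FPKM hold no read totals: from the steps between low values, read in 27 genes of 1 transcript, each FPKM was worth about 17.1 fragments per kilobase (quartiles 16.6 and 17.4), and for the 7 genes the error from counting was smaller than the spread between mice. Here log2(FPKM + 0.1) was fitted for the 15986 genes averaging 0.1 FPKM or more in limma 3.58.1 (R 4.3.3), with 1 mean per group, a mean-variance trend and Benjamini-Hochberg adjustment. A fold change on this scale understates the change of weakly expressed genes. Single genes were tested by exact permutation of mice, and correlations with 100000 permutations within groups. Promoters and coordinates came from RefSeq GRCm38.p6, transcript lengths from GENCODE M21, for 97.8% of the 12904 genes averaging 1 FPKM or more. Most genes named were drawn from the 7 members, their C/EBP, Serpina3 and Mt4 relatives and the 3 nearest genes of each member. Others came from the 2 most abundant of each list and the 2 with the smallest p in EtOH against Ctrl or EtOH-UA against EtOH. Not every gene of this set is named. Members and lists were chosen with earlier results of these data known. The script for limma was tested on simulated data.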

Additional observations from a re-analysis of the deposited data

Results flagged for a closer look

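In each group of each gene, the gap between the extreme mouse and its nearest neighbor was set against the range of the group on the log2 scale, in 21 groups of which chance flags about 1 in 20. In this way 3 values were flagged. Lcn2 in EtOH-UA mouse 141 was 0.13 FPKM, with a gap of 77.9% of the group's range, and the same mouse had the lowest Lrg1 of its group. Mt2 in Ctrl mouse 144 was 177.84 FPKM, with a gap of 68.3% of the range, and the same mouse had the highest Mt1 of its group. Cebpd in Ctrl mouse 138 was 2.36 FPKM, with a gap of 50.9% of the range.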

How the results depend on the processing

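The signs of the Lrg1 and Lcn2 differences held in all 3 comparisons under every alternative that could be run (pseudocounts of 0.01 and 1, no filter, only the 2 groups compared, upper-quartile and quantile scaling, mouse weights, the 2 covariates and each mouse left out), and none of the 7 genes passed in EtOH against Ctrl under any. A filter at a mean of 1 FPKM removes Lrg1 and Lcn2. With mouse weights, EtOH-UA minus Ctrl turned to -0.0058 for Mt1 and -0.021 for Mt3. Leaving out single mice gave -0.017 (without EtOH-UA mouse 137) to 0.11 for Mt1 in that comparison, and -0.097 to 0.014 for Serpina3n in EtOH minus Ctrl, which turned without EtOH mouse 181, EtOH mouse 192 or Ctrl mouse 201. The count of genes past the threshold in EtOH against Ctrl was 1 with mouse weights and 1 with the length slope as a covariate, Cd24a both times. Leaving out single mice gave 0 to 1 genes in each comparison, with LOC115488002 in EtOH against Ctrl without Ctrl mouse 203, and LOC101055676 in the others without EtOH-UA mouse 178 or 179. Of the correlated pairs of the 7 genes, 2 passed with the length slope regressed out, and 4 to 6 with single mice left out. Mt1 and Mt3 turned to r = -0.071 with the slope regressed out. Relations with list levels that passed by r numbered 3 after upper-quartile scaling and 4 with the slope regressed out. With single mice left out they numbered 1 (without EtOH mouse 189) to 10, and 2 without EtOH-UA mouse 137. The cause was not tested. The length slope and choroid plexus alternatives were added after the data were seen. No paired analysis was possible because the columns carry mouse numbers and no replicate numbers shared between groups.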
